A study of Caenorhabditis elegans with 42 samples.

Results

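The transcription factor genes skn-1, med-1, med-2, end-1, end-3, elt-2, elt-7, pal-1, pha-4 and elt-1, which assign cell lineages in the early Caenorhabditis elegans embryo, were followed in wild type and in strains without ADR-1 or ADR-2. The members were taken by name, as every line of the deposited expression tables whose gene name is one of these 10, out of 30304 genes. They cover 18 of the 34873 transcripts listed. The gene skn-1 has 3 transcripts, as do pal-1 and pha-4, elt-1 and elt-7 have 2 each, and the others have 1.

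In the early embryo, maternal SKN-1 protein turns on the small GATA factors MED-1 and MED-2 in the EMS blastomere, and these, with Wnt signalling through POP-1, turn on END-1 and END-3 in the endoderm precursor. END-1 and END-3 hand over to ELT-2 and ELT-7, which keep intestinal genes on for the life of the worm. PAL-1, a Caudal homeodomain protein, specifies the posterior C and D lineages, PHA-4, a FoxA protein, specifies the pharynx, and ELT-1, another GATA factor, specifies the epidermis. SKN-1 is also known, after embryogenesis, for turning on detoxification genes in the intestine.

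The study compared worms that lack ADR-1 or ADR-2 with wild type. ADR-2 is the adenosine deaminase that edits A to I in double-stranded RNA, and ADR-1 is a related RNA-binding protein without deaminase activity that modulates editing. Wild type was strain N2, and each mutant strain carried a single adr allele, adr-1 tm668 in BB19, adr-1 gv6 in BB2, adr-2 ok735 in RB886 and adr-2 gv42 in BB3. Each strain was sequenced as whole embryos and as whole L4 larvae, grown at 20 °C on OP50 bacteria. The labels give 4 libraries for N2 embryos, 2 for BB2 embryos and 3 for every other strain and stage, 30 in all. Another 12 libraries came from young adults, as the RNA recovered with a FLAG antibody from worms with tagged ADR-1 or as the input to it. The tagged protein came from an extrachromosomal array, which is not passed to every cell, in strain HH76, which carries adr-1 tm668, and in strain HH134, which carries both adr-1 tm668 and adr-2 ok735. The untagged control, BB21, also carries both mutations, and each of these strains has 2 libraries of recovered RNA and 2 of input.

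The files hold the authors' normalised mean count of each strain, not values of single libraries, so no spread between libraries is available. A member was called higher or lower where its adjusted p in the authors' deposited table was under 0.05. The deposited test statistic was set beside one from counting error alone, over transcripts with both means of at least 100 and a p below a set limit. The median ratio of the 2 lay between 0.93 and 1.131 over the comparisons, a median that need not hold for a given gene. A call therefore says that the deposited adjusted p was under 0.05, and nothing about variation between cultures. It can differ from an interval based on counting error alone. For pal-1 that interval was −0.20 to −0.02 in RB886 larvae, not called, with an unadjusted p of 0.0734 in the authors' deposited table. It was −0.20 to −0.03 in BB3 larvae, which were called. Intervals in brackets below cover counting error only, at 95%, and a wider interval that assumes a spread of 20% between libraries is given where stated. The summed means of a group lay between 14180000 and 17400000.

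The targeted genes were read first. Level of adr-1 fell from 6290 to 1520 in BB19 embryos, from 6520 to 1110 in BB2 embryos and from 3300 to 1020 in BB19 larvae. In the L4 libraries labelled BB2 it fell less far, from 2960 to 1590, and adr-2 was also lower there, at 718 against 1130. The ratio of adr-1 to N2 was 0.537 in these larvae against 0.170 in BB2 embryos. These larvae are therefore called by their label, and whether every library behind that mean is of the labelled genotype was not tested. Level of adr-2 fell from 2110 to 133 in RB886 embryos, from 2010 to 117 in BB3 embryos, from 1220 to 99.9 in RB886 larvae and from 1240 to 108 in BB3 larvae. Summed over 8 sperm genes, which worms of the L4 stage express, the N2 mean was 125 in embryos and 6712 in larvae in the tables of BB19.

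All 10 factors had more RNA in N2 embryos than in N2 larvae when each mean was expressed per 1000000 of the summed means of its table. The tables of the 2 stages were normalised separately, so these ratios are descriptions with no test. The ratio was 91.9 for end-1 (95% exact interval 35.7 to 338.5 from counts) and 31.3 for end-3 (13.2 to 97.4), whose larval means rest on about 4 and 5 reads over the N2 libraries. For med-2 it was 6.71 (2.39 to 26.0) and for med-1 it was 5.77 (2.03 to 22.6), each on about 4 larval reads. Intervals of those 4 genes are exact conditional binomial ones, and those of the 2 med genes overlap each other almost fully.

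The other 6 factors all had larval means above 10. Embryos held 4.59 times the larval level of pha-4, 4.46 times that of elt-1 and 2.14 times that of pal-1. For elt-7 the ratio was 1.86, for skn-1 it was 1.35 and for elt-2, whose protein runs the mature intestine, it was 1.30. Over the 5 strains the ratio ranged from 3.66 to 4.59 for pha-4, from 4.16 to 5.85 for elt-1, from 1.75 to 2.82 for pal-1 and from 1.83 to 2.06 for elt-7. It ranged from 1.20 to 1.48 for skn-1 and from 1.09 to 1.33 for elt-2, so these neighbours overlapped in range, as did pha-4 with elt-1 and pal-1 with elt-7.

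**Figure D1:**
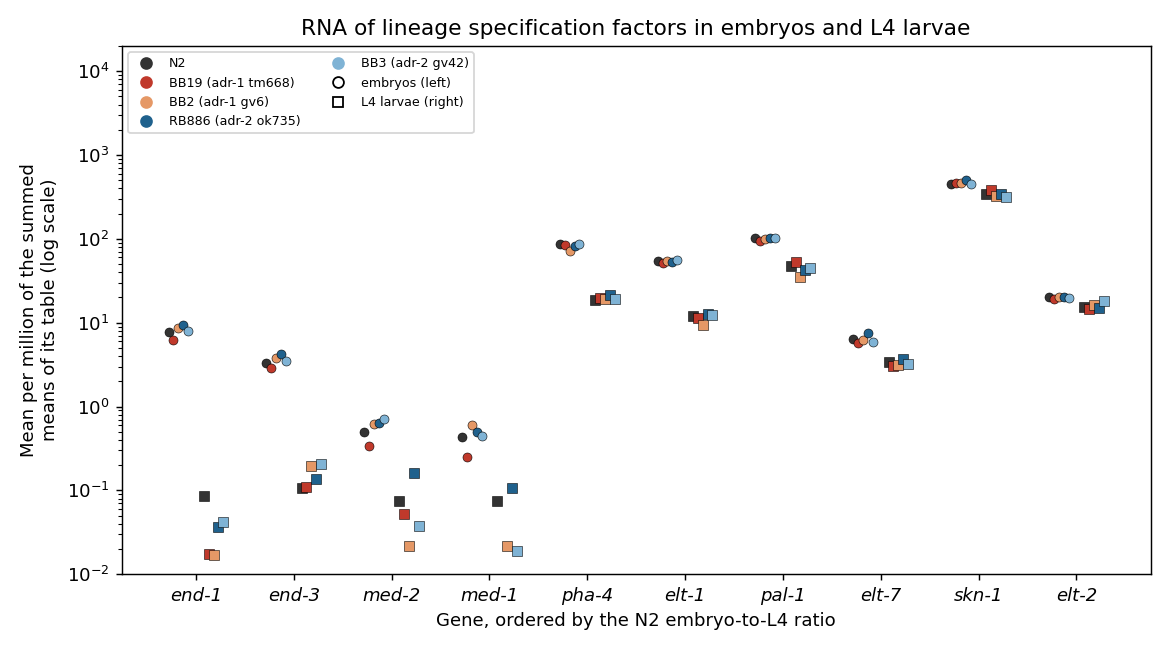
Mean level of each factor in embryos (circles, left) and L4 larvae (squares, right), per 1000000 of the summed means of its table, on a log axis, with a colour for each strain. Larval end-1, end-3, med-2 and med-1 lie near or below 0.2, the med-1 mean of BB19 larvae is 0 and is not drawn, and heights are not corrected for gene length, so they compare strains and stages and not genes.

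At most 3 of the 10 factors were called in any comparison, and none of the calls was large. In BB19 embryos 2 of the 10 were called, both lower, where 29.9% of all tested genes were called and 16.8% were lower. In BB2 embryos 3 were called, all lower, against 35.4% called and 16.7% lower. In RB886 embryos 2 were higher and 1 lower, against 18.2% called, 9.27% higher and 8.93% lower. In BB3 embryos none was called, against 16.2%, and 1 factor, skn-1, had an unadjusted p under 0.05 in the authors' deposited table, at 0.0338.

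In larvae 2 were called in BB19, both higher, against 32.3% of all genes called and 17.3% higher. In the larvae labelled BB2 1 was higher and 2 were lower, against 34.6% called, 16.3% higher and 18.4% lower. In RB886 larvae 2 were higher, against 17.5% called, 9.42% higher and 8.07% lower. In BB3 larvae 1 was higher and 2 were lower, against 16.9% called, 8.51% higher and 8.39% lower. Every called factor had an average mean of at least 10, and among all genes with such means the share called was 50.1%, 57.9%, 30.9% and 27.1% in embryos of BB19, BB2, RB886 and BB3, and 47.4%, 51.4%, 26.3% and 25% in larvae. The calls of the factors fell among 8 with such means in BB19, BB2 and RB886 embryos, 9 in BB3 embryos and 6 in each set of larvae. With 10 factors, 1 gene moves the share by 10 points, and by more among those with such means. No comparison stood apart from its background by more than a few genes.

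No factor was both called and changed at least 1.5-fold in any of the 8 comparisons. Among all genes this share was 8.02% in BB19, 12.3% in BB2, 2.27% in RB886 and 3.53% in BB3 embryos, and 9.61%, 10.2%, 4.4% and 4.36% in larvae of the same strains. With an assumed spread of 20% between libraries none of the factors passed in any comparison. Of all genes, 2.84%, 5.1%, 0.214% and 0.581% then passed in embryos and 5.67%, 5.96%, 1.85% and 1.78% in larvae, in the same order of strains.

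Of the 10 factors, 8 had an average mean of at least 10 in BB19, BB2 and RB886 embryos, 9 in BB3 embryos and 6 in every larval table. The others were med-1 and med-2 in embryos, of which med-2 reached 10 in BB3, and those 2 with end-1 and end-3 in larvae. Over the factors with such means, the median log2 ratio of mutant to N2 was −0.10 in BB19 embryos, −0.08 in BB2 embryos, 0.04 in RB886 embryos and 0.06 in BB3 embryos, beside −0.05, −0.01, 0.00 and 0.02 for all genes. In larvae the median of the factors lay between −0.04 and 0.08, beside −0.01 to 0.02 for all genes.

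**Figure D2:**
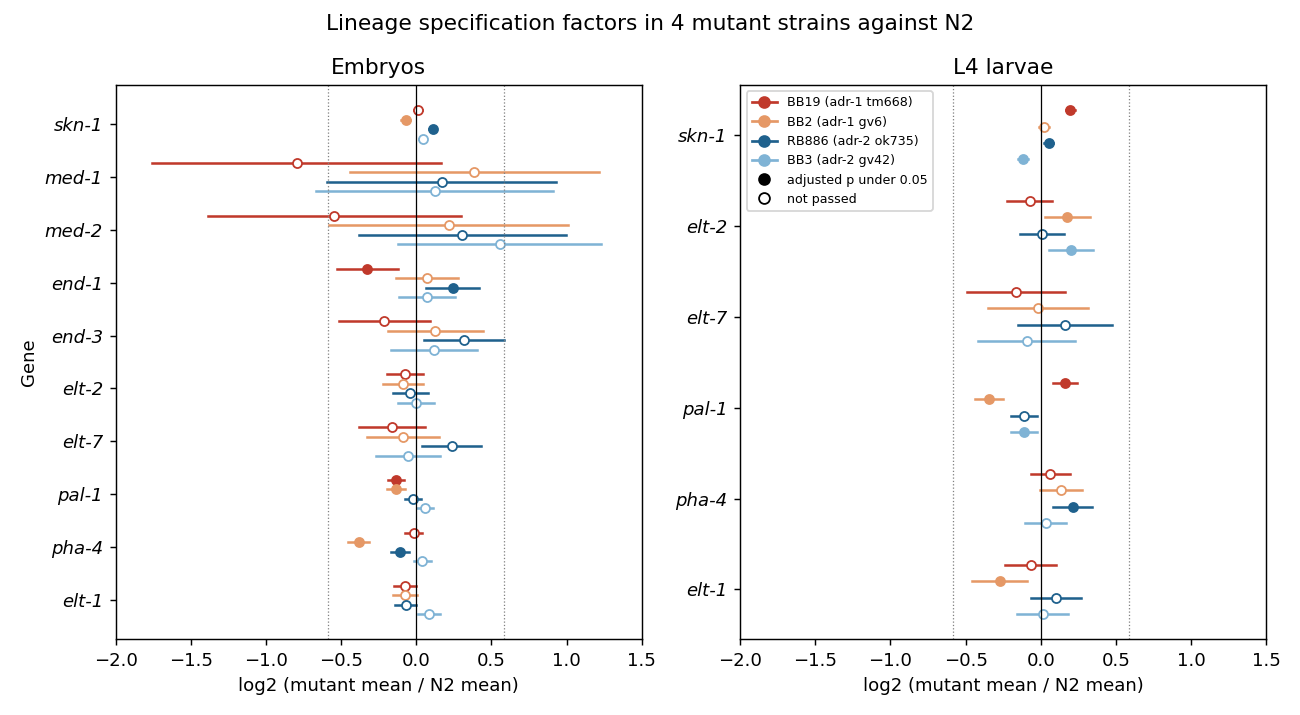
Log2 ratio of mutant to N2 mean for each factor in embryos (left) and L4 larvae (right), with bars for the 95% interval from counting error and filled points where the deposited adjusted p was under 0.05; dotted lines mark 1.5-fold. Filled points all lie between the dotted lines, the widest bars belong to med-1 and med-2, and the 4 members with fewer than 10 normalised counts in larvae are drawn for embryos only; skn-1 in BB2 embryos changes sign when the table is recentred.

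At the head of the cascade, skn-1 was called in different directions by strain. Its principal transcript, skn-1c, had a mean of 7580 in N2 against 7640 in BB19 embryos, 7860 against 7480 in BB2, 7950 against 8570 in RB886 and 7580 against 7810 in BB3. RB886 embryos were higher by 0.11 on the log2 scale (0.09 to 0.13, adjusted p = 7.95e-15 in the authors' deposited table). BB2 embryos were lower by a log2 ratio of −0.07 (adjusted p = 1.62e-09 in the authors' deposited table), a sign that turned to 0.01 once the ratios were recentred on the median of all genes with means of at least 100. In larvae the means were 5350 against 6130 in BB19, 4800 against 4870 in BB2, 5190 against 5390 in RB886 and 5270 against 4850 in BB3. BB19 larvae were thus 14.6% higher, the largest difference of this transcript (log2 0.20, 0.17 to 0.23), and the libraries labelled BB2, with the other adr-1 allele, were not called. The 2 adr-2 alleles were called in opposite directions, at 0.05 in RB886 and −0.12 in BB3, with adjusted p of 0.00247 and 2.14e-11 in the authors' deposited table. Neither call held in every transcript, since skn-1a in RB886 and skn-1b in BB3 had adjusted p of 0.375 and 0.33 in the authors' deposited table.

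The transcripts of skn-1 kept nearly fixed proportions. Per table, skn-1a stood at 15.2% to 15.3% of skn-1c in N2 embryos and at 15.2% to 15.3% in the mutants. The transcript skn-1b, known for its role in ASI neurons, stood at 7.65% in N2 embryos and 7.45% to 8.13% in mutants, and at 7.19% to 7.21% in N2 larvae and 6.59% to 7.85% in mutants. In BB19 larvae skn-1b rose from 385 to 467 and in RB886 larvae from 374 to 423, both called. In the L4 libraries labelled BB2 it was 321 against 345, and in BB3 larvae 352 against 379, neither called. Transcripts of a gene share exons, so their means are not independent of each other.

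The med genes, the direct zygotic targets of SKN-1, rested on few reads. In N2 embryos the mean of med-1 was 7.15 and that of med-2 was 8.3 in the table of BB19, which correspond to 26 to 32 and 30 to 37 reads in all. Mutant embryos had 4.11 for med-1 and 5.69 for med-2 in BB19, 9.69 and 10 in BB2, 8.42 and 10.8 in RB886, and 7.78 and 12.2 in BB3. None was called. The widest departures were a log2 ratio of −0.80 for med-1 in BB19 and 0.55 for med-2 in BB3, with counting intervals that include 0. In larvae N2 had 1.18 for both genes in that table, about 3 to 4 reads each, and BB19 larvae had no read for med-1. Over the 4 mutant strains the larval means ran from 0 to 1.71 for med-1 and from 0.331 to 2.56 for med-2. The 2 genes are near copies and may share reads, and their means were equal in N2 larvae and in the larvae labelled BB2 (0.331 each), but not in embryos.

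Next in the cascade, end-1 was the only gene called among med-1, med-2, end-1 and end-3, lower in BB19 embryos and higher in RB886 embryos. The N2 mean lay between 130 and 136 over the 4 tables, and mutant embryos had 161 in RB886 and 137 in BB3. In BB2 it was 4.96% above N2. In BB19 it fell by 20.2% (log2 −0.33, −0.53 to −0.12, adjusted p = 0.0423 in the authors' deposited table). The rise in RB886 was 18.2% (log2 0.24, 0.07 to 0.42, adjusted p = 0.0468 in the authors' deposited table). Neither allele partner was called, with adjusted p of 0.637 in BB2 and 0.741 in BB3 in the authors' deposited table.

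Its neighbour in function, end-3, had means of 55.2 in N2 against 47.6 in BB19, 57.2 against 62.4 in BB2, 57.8 against 72.2 in RB886 and 55.2 against 59.8 in BB3. None of these was called, and the RB886 difference was the largest (log2 0.32, 0.05 to 0.59). Read together with the med genes, all 4 of med-1, med-2, end-1 and end-3 lay below N2 in BB19 embryos and all 4 lay above N2 in BB2, RB886 and BB3 embryos, although just the end-1 differences in BB19 and RB886 passed. The 4 embryo comparisons share their N2 libraries. In larvae end-1 rested on 1 or 2 reads per mutant strain and 4 in N2, and end-3 on 5 to 11 reads, and no difference was called.

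The intestinal GATA factors were not called in any embryo comparison. The mean of elt-2 was 336 in N2 against 319 in BB19, 349 against 328 in BB2, 353 against 343 in RB886 and 336 against 336 in BB3, with adjusted p between 0.266 and 1 in the authors' deposited table. In larvae elt-2 was higher in 1 strain of each genotype. It was 250 against 221 in the libraries labelled BB2 (log2 0.18, 0.03 to 0.33) and 278 against 242 in BB3 (log2 0.20, 0.06 to 0.34), with adjusted p of 0.0265 and 0.0133 in the authors' deposited table. BB19 larvae had 234 against 246 and RB886 larvae 240 against 239, neither called.

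The partner of elt-2, elt-7, was called nowhere. Its embryo means were 105 in N2 against 94.2 in BB19, 109 against 102 in BB2, 110 against 130 in RB886 and 105 against 101 in BB3. Its larval means were 53.8 against 48 in BB19, 48.3 against 47.7 in BB2, 52.3 against 58.5 in RB886 and 53 against 49.7 in BB3. RB886 stood highest at both stages, by a log2 ratio of 0.24 in embryos (0.04 to 0.43) and 0.16 in larvae (−0.15 to 0.47). The second transcript, elt-7b, stood at 56.0% to 68.5% of elt-7a in the mutants and at 64.0% to 65.2% in N2.

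The C and D lineage factor pal-1 was the only member called in the same direction in both alleles of a gene. It was lower in both adr-1 strains as embryos, where 10.6% of all genes were lower in both. Its principal transcript had a mean of 1550 against 1700 in BB19 and 1610 against 1770 in BB2, and so fell by 8.99% in BB19 and fell by 9.03% in BB2. The log2 ratios were −0.14 in each (−0.19 to −0.08 and −0.20 to −0.08), with adjusted p of 0.000127 and 8.1e-06 in the authors' deposited table, and −0.06 in each after recentring. All 3 transcripts were called lower in both strains, but they share exons and are not independent of each other. Embryos of the adr-2 strains were close to N2, at 1760 against 1780 in RB886 and 1770 against 1700 in BB3, and neither was called. The 2 adr-1 comparisons share their N2 libraries, and with an assumed spread of 20% the interval for BB19 was −0.57 to 0.30.

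In larvae pal-1 was called in opposite directions in BB19 and in the libraries labelled BB2. BB19 larvae rose to 848 against 758 (log2 0.16, 0.08 to 0.24), and the larvae labelled BB2 fell to 536 against 680 (log2 −0.34, −0.44 to −0.25). It fell by 21.2% there, the largest called larval difference of any member. RB886 had 682 against 736 and BB3 689 against 745, nearly the same log2 ratio of −0.11. Of those the authors' deposited table called BB3, with an adjusted p of 0.00473, and not RB886, at 0.25.

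The pharyngeal selector pha-4 showed the largest called change among the factors, in BB2 embryos. Its mean there was 1150 against 1490 in N2, so that it fell by 23.2% (log2 −0.38, −0.45 to −0.31, adjusted p = 2.88e-35 in the authors' deposited table). All 3 transcripts were called lower, but they share exons and are not independent of each other. With an assumed spread of 20% the interval was −0.88 to 0.11. The other adr-1 allele was not called, with 1420 against 1440 in BB19 embryos (log2 −0.02, and 0.06 after recentring). RB886 embryos were lower at 1400 against 1510 (log2 −0.11, adjusted p = 0.00578 in the authors' deposited table), and BB3 embryos had 1480 against 1440.

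In larvae the principal transcript of pha-4 was above N2 in all 4 strains by small margins, while in BB3 the other 2 transcripts were just below it, at 250 against 253 and at log2 ratios of −0.02 and −0.01. The means were 313 against 299 in BB19, 295 against 268 in BB2, 337 against 290 in RB886 and 301 against 294 in BB3. RB886 larvae alone were called (log2 0.21, 0.08 to 0.34, adjusted p = 0.0356 in the authors' deposited table), and there the other 2 transcripts missed the threshold at 0.059 and 0.0858. RB886 was thus called lower as embryos and higher as larvae.

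The epidermal selector elt-1 was called once. Embryo means were 854 against 899 in BB19, 886 against 932 in BB2, 897 against 943 in RB886 and 953 against 899 in BB3, log2 ratios of −0.07, −0.07, −0.07 and 0.08, of which the BB19 and BB2 values both became 0.00 after recentring. None was called. In the libraries labelled BB2 the larval mean fell by 17.3% from 172 (log2 −0.27, −0.46 to −0.09, adjusted p = 0.0241 in the authors' deposited table), and the second transcript, at 129 against 149, was not called. The other larval means were 183 against 192 in BB19, 200 against 186 in RB886 and 190 against 189 in BB3.

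Genes that act above and below the factors were counted in the same way. These lists were drawn up for this report from textbook roles, with earlier results of these data known. A count beside the background of its table is therefore a description. Recentring, tried on these lists after the data were seen, took the sign from 2 of the 20 lower calls of maternal regulators and 2 of the 4 lower calls of epidermal regulators in BB19 embryos, and from at most 2 calls of any list elsewhere. Of 29 maternal regulators of early cell fate, 20 were lower in BB19 embryos and 27 in BB2 embryos, where 16.8% and 16.7% of all genes were lower, and none was higher. All 29 have means of at least 10, and among genes with such means 50.1% and 57.9% were called in one direction or the other. In RB886 embryos 17 were higher and 4 lower, and in BB3 embryos 13 were higher and 2 lower, where 10.4% of all genes were higher and 5.83% lower in BB3, and 30.9% and 27.1% of genes with means of at least 10 were called. The kinase genes src-1 and mom-4, which polarise the EMS division, fell in adr-1 embryos and in BB3 embryos, where they are the 2 lower genes. The mean of src-1 was 1130 against 1540 in BB19, 1100 against 1600 in BB2 and 1280 against 1540 in BB3, log2 ratios of −0.45, −0.54 and −0.27. The log2 ratio of mom-4 was −0.58, −0.43 and −0.18 in these strains, and 0.23, called higher, in RB886. The RNA-binding protein genes mex-5 and mex-1, which restrict maternal proteins to their blastomeres, rose in adr-2 embryos, mex-1 by 0.33 in RB886 and 0.19 in BB3. The repressor gene pop-1, which keeps end-1 and end-3 off in the mesoderm sister, was 1450 against 1860 in BB2 embryos (log2 −0.35), 1720 against 1880 in RB886 embryos (log2 −0.13) and 1710 against 1790 in BB19 embryos (log2 −0.07, and 0.01 after recentring), all called lower.

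Markers of other tissues moved alongside. Of 10 germline and oocyte genes, of which oma-2 and gld-1 are also among the maternal regulators, all were lower in BB19 and BB2 embryos and all were higher in RB886 embryos, with 5 higher in BB3. Their summed mean was 15080 against 18750 in BB19, 15430 against 19430 in BB2, 22280 against 19650 in RB886 and 19740 against 18750 in BB3. Of 10 neuronal markers 8 were higher in BB19 embryos, 9 in BB2, 6 in RB886 and 6 in BB3. Of 8 body wall muscle markers 8 were higher in BB19, 7 in BB2 and 8 in BB3, while RB886 had 2 higher and 4 lower. All of these markers have means of at least 10. Of genes with such means, 50.1%, 57.9%, 30.9% and 27.1% were called in BB19, BB2, RB886 and BB3 embryos. Whole embryos were sequenced, so the number of cells of a kind, the RNA per cell and the mix of embryo ages cannot be told apart. The part of these shifts in the values of the factors was not tested.

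In larvae 23 of the maternal regulators were higher and none lower in BB19, and 4 were higher and 21 lower in the libraries labelled BB2. Of all genes 17.3% were higher in BB19 and 18.4% lower in BB2, and 47.4% and 51.4% were called among those with means of at least 10. Both sets share 19 genes called in opposite directions, and 3 were higher in both strains. Of the 10 germline markers, 8 were higher and 2 lower in BB19, and 9 were lower in BB2. Of the same markers 2 were higher and 2 lower in RB886 larvae, and 1 was higher and 7 were lower in BB3 larvae. Larval pal-1 was called higher in BB19, lower in BB2 and BB3, and not in RB886. A link between pal-1 and these counts was not tested. RB886 larvae had 6 maternal regulators higher and none lower, and BB3 larvae had 2 higher and 15 lower. Among genes with means of at least 10, 26.3% and 25% were called in these larvae.

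Of 13 mesendoderm and mesoderm targets, 8 were lower in BB19 and 6 in BB2, with 6 lower in both and none higher, where 16.8% and 16.7% of all genes were lower and 10.6% lower in both. Among genes with means of at least 10, which 12 of the 13 and all 7 epidermal regulators have, 50.1% and 57.9% were called. The lower mesendoderm and mesoderm genes include the T-box gene tbx-8, at 272 against 349 in BB19 and 274 against 362 in BB2, and the posterior Hox gene nob-1, at 226 against 268 and 232 against 278. Of 7 epidermal regulators found, 4 were lower in BB19 and 6 in BB2. They include lin-26, a zinc finger gene of epidermal fate, at 3410 against 3650 and 3320 against 3790. In the adr-2 strains 1 of the 13 and none of them were called in RB886 and BB3, and 3 and 1 of the 7 epidermal regulators. Among genes with means of at least 10, 30.9% and 27.1% were called in these strains.

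Differentiation genes were more often higher than lower in the embryos of BB19, BB2 and BB3. Of 25 intestinal genes found, 15 were higher and 3 lower in BB19, and 15 were higher and 4 lower in BB2, where 13.2% and 18.7% of all genes were higher. The acid phosphatase gene pho-1 rose to 521 against 283 in BB19 and to 530 against 294 in BB2, and also, by 0.25 and 0.44 on the log2 scale, in RB886 and BB3. The aspartyl protease gene asp-5 rose to 1030 against 574 and 975 against 595, and by 0.45 on the log2 scale in BB3. The esterase gene ges-1, a classical target of ELT-2, fell instead, to 511 against 568 and 524 against 588, and to 489 against 568 in BB3. Of 18 pharyngeal genes 11 were higher in each adr-1 strain, 2 lower in BB19 and 3 in BB2, while RB886 had 5 higher and 2 lower and BB3 had 10 higher and 1 lower. Among them phat-1, a pharyngeal gland gene, rose to 258 against 160 in BB19 and 271 against 166 in BB2, and was called higher in both adr-2 strains too. In RB886 embryos the intestinal count turned, with 3 higher and 13 lower, while BB3 had 10 higher and 5 lower. Means of at least 10 were found for 23 of the 25 intestinal and 17 of the 18 pharyngeal genes. Of all genes with such means, 50.1%, 57.9%, 30.9% and 27.1% were called in BB19, BB2, RB886 and BB3 embryos.

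At L4 the intestinal genes stood at 5 higher and 11 lower in BB19, 16 and 3 in BB2, 8 and 3 in RB886, and 6 and 7 in BB3. All 25 have means of at least 10, among which 47.4%, 51.4%, 26.3% and 25% of genes were called. The metallothionein gene mtl-1 fell to 8.62 against 38.8 in BB19 and to 10.6 against 34.8 in BB2, and rose to 65.1 against 38.1 in BB3. The pharyngeal transcription factor gene peb-1 rose in all 4 strains as larvae, to 260 against 66.3 in BB19, 197 against 59.4 in BB2, 128 against 64.4 in RB886 and 132 against 65.4 in BB3. In embryos it fell in BB19, BB2 and BB3.

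**Figure D3:**
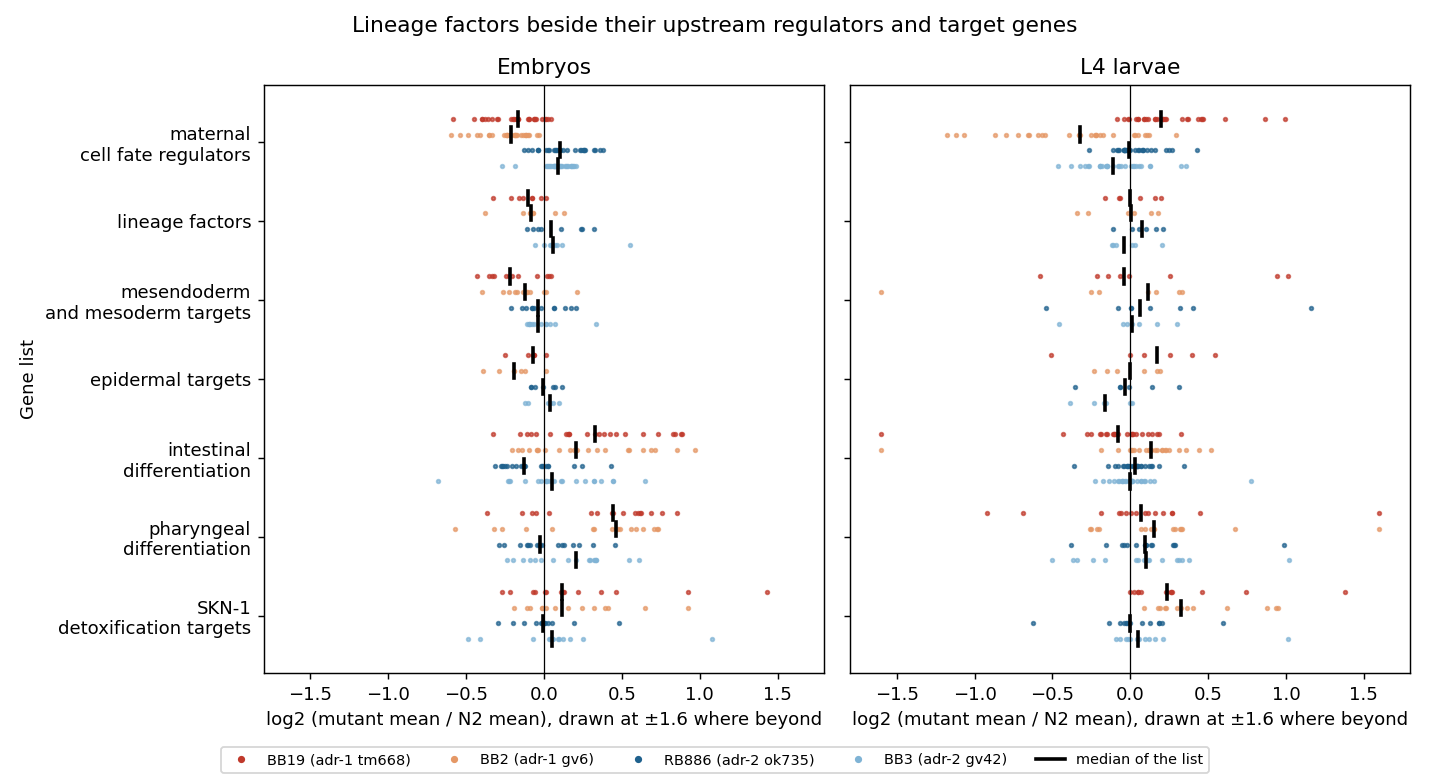
Log2 ratio of mutant to N2 mean for the genes of each list with an average mean of at least 10, in embryos (left) and L4 larvae (right), with a colour for each strain and a black bar at the median. In adr-1 embryos the bars of the maternal regulators lie at −0.17 and −0.21 and those of the pharyngeal genes at 0.44 and 0.46, while those of the lineage factors lie at −0.10 and −0.08.

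Detoxification genes on which SKN-1 is known to act were mostly higher in BB19 larvae and in those labelled BB2. Of 15 such genes, 10 were higher and none lower in BB19 larvae and 14 were higher and none lower in the larvae labelled BB2, with 10 higher in both, where 17.3% and 16.3% of all genes were higher and 47.4% and 51.4% of those with means of at least 10 were called. Their median log2 ratio was 0.23 and 0.33, beside 0.02 and −0.01 for all genes. The glutathione transferase gene gst-38 rose to 75.9 against 45.3 in BB19 and to 77.9 against 40.7 in BB2, and gst-12 rose to 25.2 against 9.67 and to 15.9 against 8.67. The mean of skn-1 itself was 14.6% higher in BB19 larvae and 1.59% higher, not called, in those labelled BB2. In adr-2 larvae 2 of the 15 were higher and 1 lower in RB886, and 4 were higher and none lower in BB3. The gene skn-1 was called higher in RB886 larvae and lower in BB3 larvae, and its part in these counts was not tested. With an assumed spread of 20%, 1 of the 15 passed in BB19 larvae and 2 in BB2. Of genes with means of at least 10, 26.3% were called in RB886 larvae and 25% in BB3 larvae. Of 6 epidermal marker genes, 2 were higher and 3 lower in BB19 larvae, all 6 were higher in BB2 and in RB886 larvae, and 4 were higher in BB3. Their summed mean was 11910 against 10230 in BB19, 16040 against 9170 in BB2, 14830 against 9923 in RB886 and 11580 against 10090 in BB3, and their part in these values was not tested.

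In embryos 6 of the 15 detoxification genes were higher and 2 lower in BB19, and 7 were higher and 2 lower in BB2. Of all genes 13.2% and 18.7% were higher there. Of genes with means of at least 10, as 14 of the 15 have, 50.1% and 57.9% were called. The mean of gst-4, the gene most used as a SKN-1 reporter, rose to 189 against 99.8 in BB19 and to 163 in BB2, log2 ratios of 0.92 and 0.65. In RB886 embryos, where skn-1 was called higher by 7.88%, none was higher and 1 was lower, against 9.27% higher and 8.93% lower among all genes. In BB3 embryos, where skn-1 was not called, 1 was higher and 1 lower, against 10.4% and 5.83%. Of genes with means of at least 10, 30.9% were called in RB886 and 27.1% in BB3 embryos. SKN-1 protein was not measured here, and the part of skn-1 in these counts was not tested.

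**Figure D4:**
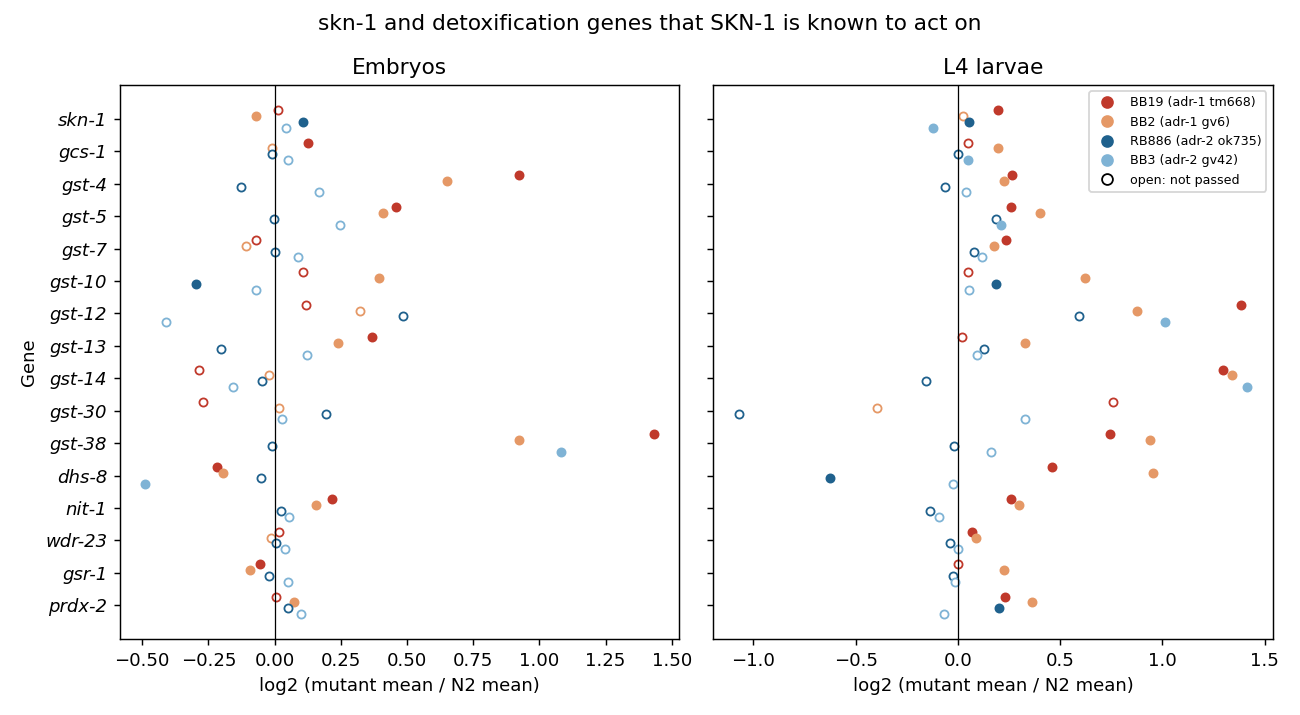
Log2 ratio of mutant to N2 mean for skn-1 and 15 detoxification genes in embryos (left) and L4 larvae (right), with a colour for each strain and open points where the deposited adjusted p was not under 0.05. Red and orange points of the larvae of BB19 and of those labelled BB2 lie mostly to the right of 0, while skn-1 is called in red and not in orange; skn-1 in BB2 embryos changes sign when the table is recentred.

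None of the 10 factors is in the authors' deposited lists of RNA bound by ADR-1, which hold 1237 genes for HH76 and 1215 for HH134, nor in their lists of changed genes. The lists of changed genes hold between 7 and 374 genes each, where the expression tables hold 30304. All these lists hold selected genes, so absence gives no value for a factor. Among the regulators around them, pop-1 was bound in both strains, with a log2 enrichment over BB21 of 3.42 ± 0.338 (SE) in HH76 and 3.20 ± 0.294 in HH134 in the authors' deposited table. Of the 25 intestinal genes found, vha-6, itr-1, acdh-1 and inx-16 were listed in both strains too. The intestinal gene nhx-2 and the pharyngeal gene tnt-4 were listed in HH76 only. Whether such genes were listed more often than others was not tested.

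The genes whose pattern was closest to each factor were found over 13482 genes by the distance across 9 values, the 8 log2 ratios and the log2 N2 stage ratio, each with a pseudocount of 1, among genes with an average mean of at least 10 in all 8 tables. The ratios of a stage share their N2 libraries. Closest to skn-1 was ubc-9, the SUMO-conjugating enzyme gene, at a distance of 0.156. Closest to pha-4 was die-1, one of the epidermal regulators above, at 0.169. Closest to elt-2 was Y62E10A.10 at 0.186, to pal-1 C35D10.13 at 0.148 and to elt-1 R10E12.2 at 0.235.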

How the data were processed

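RNA of whole embryos and L4 larvae of N2 and 4 adr mutant strains was sequenced from the high molecular weight fraction after ribosomal depletion with a stranded kit, per the labels' protocols. Bowtie, DESeq and build ce10 are listed in the submitters' processing notes, without versions or roles. The expression signal is the authors' normalised mean count per transcript and strain, per the file headers, rescaled in each table. The fold is the deposited ratio of mutant to N2 mean, and the p-value and adjusted p-value are those the authors deposited. For RNA bound by ADR-1 the authors deposited a log2 fold change, and its standard error is a deposited score.

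The 10 members and all gene lists were chosen with earlier results of these data known. Each gene was represented by its transcript with the largest sum of means, and called at a deposited adjusted p under 0.05. Log2 ratios are those of the deposited fold, without a pseudocount. Counting intervals at 95% came from the means and the labelled numbers of libraries. In BB2 embryos the spacing of the smallest means gave 3 libraries, while the labels give 2. All intervals of BB2 embryos use 2 and would be narrower with 3. The ratio of 1.131 to counting error belongs to that comparison and also uses 2. Reads behind low means came from the same spacing. The alternative Wald test, with a spread of 20% between libraries and Benjamini-Hochberg adjustment, was tested on simulated data. Named genes of a list were up to 2 with the largest rise and up to 2 with the largest fall in both alleles with an average mean of at least 10, of which some are given; pop-1 was chosen after its values were seen. Depth per library is unknown. The labels do not say how far replicates were independent cultures. The listed names elt-5 and opt-2 were not matched. Sequences and promoters were not analysed here. Python 3.11.15, numpy 2.4.6, pandas 2.3.3, scipy 1.17.1 and matplotlib 3.10.9 were used.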

Additional observations from a re-analysis of the deposited data

Results flagged for a closer look

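In 4 cases a factor was called in opposite directions in groups that share a contrast, and none of these differences was itself tested. At L4, skn-1 was higher in RB886 (log2 0.05) and lower in BB3 (−0.12), a difference of 0.172 between the 2 adr-2 alleles; neither call held in every transcript of the gene. At L4, pal-1 was higher in BB19 (0.16) and lower in the libraries labelled BB2 (−0.34), a difference of 0.505; the reduction of adr-1 in those libraries was smaller than in BB19. In BB19, pal-1 was lower in embryos (−0.14) and higher in larvae (0.16), a difference of −0.297. In RB886, pha-4 was lower in embryos (−0.11) and higher in larvae (0.21), a difference of −0.321; the larval call did not hold in every transcript. The pairs share N2 libraries where the stage is the same, and tables of the 2 stages were normalised separately.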

How the results depend on the processing

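The deposited means leave no value per library, so leaving out replicates was not run. No paired analysis was possible because the tables hold group means and carry no replicate numbers. Requiring at least 1.5-fold, or assuming a spread of 20% between libraries, each left 0 factors called in the 7 comparisons that had any. An adjusted p under 0.01 left 1 in BB19 embryos, in BB2 larvae and in RB886 larvae, and 2 of 3 in RB886 embryos and in BB3 larvae. Requiring every transcript of a gene left 0 in RB886 larvae, and 2 of 3 in BB2 larvae and in BB3 larvae. Recentring on the median of all genes turned the sign of pha-4 in BB19 embryos (0.058), of skn-1 in BB2 embryos (0.006) and of elt-1 in BB2 embryos (0.003), of which skn-1 was called; those tables had a median log2 ratio of −0.075 in BB19 and −0.077 in BB2. Of 610 values of single factors under these settings, pseudocounts of 1 and 5 and a minimum mean of 10, 561 kept their direction and side of the threshold, 46 lost the call and 3 turned sign. Most of these values carried no call and could not lose one, so the 561 does not measure how firm the calls are. Under the 1.5-fold limit, and again under the 20% spread, 18 of 79 values lost the call. The 61 that stayed the same had none to lose. Recentring left 18 of 20 called maternal regulators and 2 of 4 epidermal regulators in BB19 embryos, chosen after seeing the data. Counting error limits med-1, med-2 and, in larvae, end-1 and end-3.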
